A study of Mus musculus with 8 samples.

Results

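Platelet-derived growth factors, KIT ligand and their receptors were followed in whole mouse embryos at embryonic day 6.5. The 7 genes are Pdgfa, Pdgfb, Pdgfc and Kitl, which encode ligands, and Pdgfra, Pdgfrb and Kit, which encode receptors. They were taken by name, with earlier results of these data known, and all 7 had a row among the 19950 genes of the table. The libraries came from 4 embryos mutant for both Axin1 and Axin2 and 4 wild-type (WT) embryos, numbered 1, 2, 4 and 5 within each genotype. Axin proteins hold together the machinery that has β-catenin destroyed, and losing them raises canonical WNT signalling. Neither alleles, strain nor litters are stated in the sources used here. The p-values were computed from embryo-to-embryo spread and treat embryos as independent. A difference in litter or strain between the groups could not be told apart from genotype.

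The PDGF receptors and KIT belong to the class III receptor tyrosine kinases, which pair up when a dimeric ligand binds and then phosphorylate each other. PDGF-A acts through PDGFRα, PDGF-B binds both receptors, and PDGF-C is secreted with a CUB domain that a protease such as plasmin or tissue plasminogen activator has to remove. KIT ligand, also called stem cell factor, is made as a membrane protein that can be shed, and it sustains germ cells, blood progenitors and pigment cell precursors that carry KIT. Around gastrulation in the mouse, Pdgfra is a known marker of primitive endoderm and of mesoderm, and Pdgfrb is best known later in mural cells and fibroblasts. In whole embryos, fewer cells of a type and less RNA per cell cannot be told apart.

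Reads in genes numbered 26615732 to 36778164 per library, and values are scaled counts, the reads in a gene divided by the size factor of its library. Axin1 had 1721, 1984.5, 2203 and 2074 scaled counts in mutant replicates 1, 2, 4 and 5, against 5274, 5139.7, 2963 and 4884 in WT replicates (log2 fold change -1.16, limma adjusted p = 0.00269), lower in every mutant library than in any WT library. Axin2, itself a target of WNT signalling, averaged 370.5 ± 113 scaled counts in mutant embryos and 266 ± 32.6 in WT embryos (SD, n = 4 each; limma adjusted p = 0.19). Which exons the alleles remove is not given, so total Axin2 does not check that label. Y-linked genes summed to 5243.5 to 6248 scaled counts in mutant libraries, against 6465, 14.2, 7369 and 0 in WT replicates 1, 2, 4 and 5, so sex and genotype were partly confounded. The other 6 libraries are called Y-expressing. Summed maternal decidua markers were higher in all 4 mutant libraries than in any WT library, and highest in mutant replicates 4 and 5. The decidual hormone gene Prl8a2 alone was lower in mutant replicates 1 and 2 than in WT replicate 1. A decidua covariate, the mean log2 level of the decidua markers, was 7.66 to 10.9 in mutant and 5.06 to 6.74 in WT libraries. It was thus confounded with genotype, and a call lost with it cannot be assigned to decidua or genotype. These values and the low endoderm transcripts of WT replicate 5 are given beside the genes concerned. Of all tested genes 1253 were higher and 1178 lower, or 1029 and 1590 when each library was centred on its median.

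Kitl, Pdgfa and Pdgfrb were higher in mutant embryos, 3 of 7 genes, and 0 of 7 were called lower. The 0 lower also held at an unadjusted limma p under 0.05 and with edgeR or DESeq2. The number higher did not, with 4 in edgeR and 5 in DESeq2, and Pdgfra and Pdgfc had unadjusted limma p of 0.00869 and 0.0094. A gene was called when its limma p, adjusted by the Benjamini-Hochberg method over all 15600 tested genes, was under 0.05. By that rule 8.03% of the tested genes were higher and 7.55% lower, or 15.6% in either direction. Median log2 fold change was 0.65 over the 7 genes and -0.0018 over all tested genes. The 4 mutant and 4 WT values did not overlap for Kitl, Pdgfa and Pdgfrb, and they did not overlap for 22.4% of all tested genes. Kitl was 3.06-fold, Pdgfa 1.57-fold and Pdgfrb 3.45-fold higher. Pdgfc and Pdgfra did not pass, with adjusted p just above the threshold, and Pdgfb and Kit were further from it.

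The sequence just upstream of 4 of these genes is printed for orientation, since Kitl and Pdgfa were called higher whereas their partner receptors Kit and Pdgfra, which are neighbours on chromosome 5, were not. Each window is from RefSeq on GRCm38.p6 and runs 5′ to 3′ on the gene's strand from 250 bases before the annotated start to 50 bases after it. Capitals mark matches, on either strand, to GGGCGG (the SP/KLF box) and TATAAA (the TATA box). Windows were also searched on both strands for CTTTGAT and CTTTGAA (TCF/LEF) and GATAA (GATA). Kitl lies at chr10:100015571-100015870 on the + strand and Pdgfa at chr5:138994895-138995194 on the - strand. Pdgfra lies at chr5:75152001-75152300 and Kit at chr5:75574737-75575036, both on the + strand. For Pdgfa and Kit, which have more than 1 annotated start, the most upstream window is shown.
Kitl: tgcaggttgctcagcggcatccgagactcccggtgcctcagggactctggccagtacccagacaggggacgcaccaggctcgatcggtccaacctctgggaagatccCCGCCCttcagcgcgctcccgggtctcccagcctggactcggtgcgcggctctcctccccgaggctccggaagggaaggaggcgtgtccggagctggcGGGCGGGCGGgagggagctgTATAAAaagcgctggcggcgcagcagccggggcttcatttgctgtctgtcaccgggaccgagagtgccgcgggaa
Pdgfa: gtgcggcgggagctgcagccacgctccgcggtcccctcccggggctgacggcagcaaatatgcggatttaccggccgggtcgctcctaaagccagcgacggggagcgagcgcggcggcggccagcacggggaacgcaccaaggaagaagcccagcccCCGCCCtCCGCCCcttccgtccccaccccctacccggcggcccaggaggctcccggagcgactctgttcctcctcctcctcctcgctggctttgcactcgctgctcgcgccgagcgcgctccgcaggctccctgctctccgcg
Pdgfra: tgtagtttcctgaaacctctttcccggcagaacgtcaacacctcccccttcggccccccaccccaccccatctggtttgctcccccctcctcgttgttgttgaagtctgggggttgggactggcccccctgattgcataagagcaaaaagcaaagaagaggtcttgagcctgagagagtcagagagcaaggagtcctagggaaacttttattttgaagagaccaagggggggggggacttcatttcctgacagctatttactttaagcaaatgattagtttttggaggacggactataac
Kit: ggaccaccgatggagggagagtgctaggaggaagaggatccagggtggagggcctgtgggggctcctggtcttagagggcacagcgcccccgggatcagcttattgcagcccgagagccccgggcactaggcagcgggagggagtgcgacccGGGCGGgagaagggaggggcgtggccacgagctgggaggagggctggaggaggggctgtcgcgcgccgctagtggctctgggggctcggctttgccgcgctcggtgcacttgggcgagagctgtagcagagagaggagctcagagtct

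The Kitl window held TATAAA beginning 25 bases before the start and 3 copies of GGGCGG, of which 2 overlap each other. The Pdgfa window held 2 copies of GGGCGG, the Kit window 1 and the Pdgfra window none. Windows of the same length over all annotated starts, 32851 in number, held GGGCGG in 35.7% and TATAAA in 13.6% of cases. The TCF/LEF words were in none of the windows of the 5 genes that have one, Pdgfc included, and over all windows CTTTGAT was in 3.73% and the variant CTTTGAA in 5.14%. The GATA word was also in none of the 5, against 25.4% of all windows. Base composition split the genes, with 68.7% G or C for Kitl, 73.3% for Pdgfa and 69% for Kit, against 51% for Pdgfra and 55% for Pdgfc, and a median of 52.7% over all windows. These are matches of letters and carry no measurement of binding.

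Among the ligands, Kitl (chr10:100015630-100100416, + strand) had the smallest p of the 7 genes. It had 1258, 989.9, 1212 and 1106 scaled counts in mutant replicates 1, 2, 4 and 5, against 337, 366, 339 and 451 in WT replicates 1, 2, 4 and 5. Every mutant embryo stood well above the highest WT embryo, and the mutant libraries differed among themselves by no more than 1.27 times. Means were 1142 ± 119 in mutant embryos and 373 ± 53.6 in WT embryos (SD, n = 4 each). The log2 fold change was 1.62 ± 0.13 (SE), with a 95% interval of 1.32 to 1.91 and a limma adjusted p of 0.000127. It was called under all 21 alternative analyses, with a log2 fold change of 1.53 to 1.75. Counts per gene do not separate the membrane-bound from the soluble splice form of KIT ligand.

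Pdgfa (chr5:138976014-138997370, - strand) encodes the ligand of PDGFRα. Its scaled counts were 925, 792, 649.6 and 840.0 in mutant replicates 1, 2, 4 and 5, against 535, 474, 484 and 539.8 in the WT replicates of the same numbers. The groups did not overlap, and the lowest mutant embryo, replicate 4, stood above the highest WT embryo, replicate 5. Pdgfa averaged 802 ± 115 scaled counts in mutant embryos and 508 ± 34.2 in WT embryos (SD, n = 4 each), a log2 fold change of 0.65 ± 0.13 (SE; 95% interval 0.36 to 0.93) at a limma adjusted p of 0.00883. The call was kept in 19 of 21 alternatives. It was lost in the 6 Y-expressing libraries (0.64, adjusted p = 0.0719) and with maternal decidua markers as a covariate (0.87, adjusted p = 0.104). Pdgfa shares 813 exon bases with the antisense transcript 6330403L08Rik, and the library kit did not mark strand, so reads there cannot be assigned to either gene. That transcript averaged 50.8 scaled counts in mutant embryos and 27.5 in WT embryos, far below Pdgfa.

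Pdgfb (chr15:79995874-80014977, - strand), which encodes the ligand that binds both PDGF receptors, was low in both genotypes. Mutant replicates 1, 2, 4 and 5 had 114, 159, 129 and 101 scaled counts of Pdgfb, against 98.4, 97.6, 117 and 129 in WT replicates. These ranges overlapped, with WT replicate 5 level with mutant replicate 4. The means of 126 ± 25.2 and 110.5 ± 15.3 in mutant and WT embryos (SD, n = 4 each) gave a log2 difference of 0.17, with a 95% interval of -0.29 to 0.64 and a limma adjusted p of 0.631. It passed the test in 0 of 21 alternatives.

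Pdgfc (chr3:81036416-81214040, + strand) encodes the ligand with the CUB domain, and it varied more between mutant embryos than any other of the 7 genes. It had 404, 52.5, 1392 and 707 scaled counts in mutant replicates 1, 2, 4 and 5, against 69.6, 64.4, 57.2 and 37.9 in WT replicates. Mutant replicates 1, 4 and 5 lay far above every WT embryo, whereas mutant replicate 2 lay within the WT range. The highest mutant library was 26.5 times the lowest, and the highest WT library was 1.84 times the lowest. The means were 639 ± 569 in mutant embryos and 57.3 ± 13.9 in WT embryos (SD, n = 4 each). The log2 fold change of 2.75 ± 0.84 (SE; 95% interval 0.85 to 4.65) did not pass at a limma adjusted p of 0.0566. On recovered reads it passed, with a log2 fold change of 3.48 in edgeR (adjusted p = 0.0181) and in DESeq2 (adjusted p = 0.00028), and limma with array weights gave 2.69 (adjusted p = 0.0352).

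The mutant libraries fell in the same order for Pdgfc as for transcripts of the maternal decidua, the uterine tissue around the implanted embryo. Summed scaled counts of 15 decidua markers were 19235, 6647, 56234 and 31123 in mutant replicates 1, 2, 4 and 5, against 2859.6, 2575, 996 and 909 in WT replicates. Of the 15 markers, 13 were highest among mutants in replicate 4 and 10 were lowest in replicate 2. Lum, a stromal marker of the list, was at 0 in all WT libraries. Prl8a2, a prolactin-family hormone made by decidua, had 135, 479, 6283 and 6056 scaled counts in mutant replicates 1, 2, 4 and 5, against 1129, 793, 21.7 and 79.3 in WT replicates, so this marker did not rank the libraries as the sum did. With the mean of the decidua markers as a covariate, the log2 difference of Pdgfc was -0.71 (adjusted p = 0.778), and without mutant replicates 4 and 5 it was 1.37 (adjusted p = 0.306). Without mutant replicate 2 it was 3.70 and passed (limma adjusted p = 0.00118). The covariate did not overlap between genotypes, so its fit cannot separate decidua from genotype. Mutant replicates 1 and 2 also exceeded every WT library in the decidua sum. Of that sum, Col1a1 was 7837 and Des 7413 in mutant replicate 1, and Col1a1 was 3421 in mutant replicate 2. Prl8a2 and its relative Prl3c1 were lower in both of these libraries than in WT replicate 1. Prl3c1 had 18.3 and 82.9 scaled counts there, against 161 in WT replicate 1. The part of maternal tissue in the Pdgfc difference was not tested beyond these values.

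**Figure D1:**
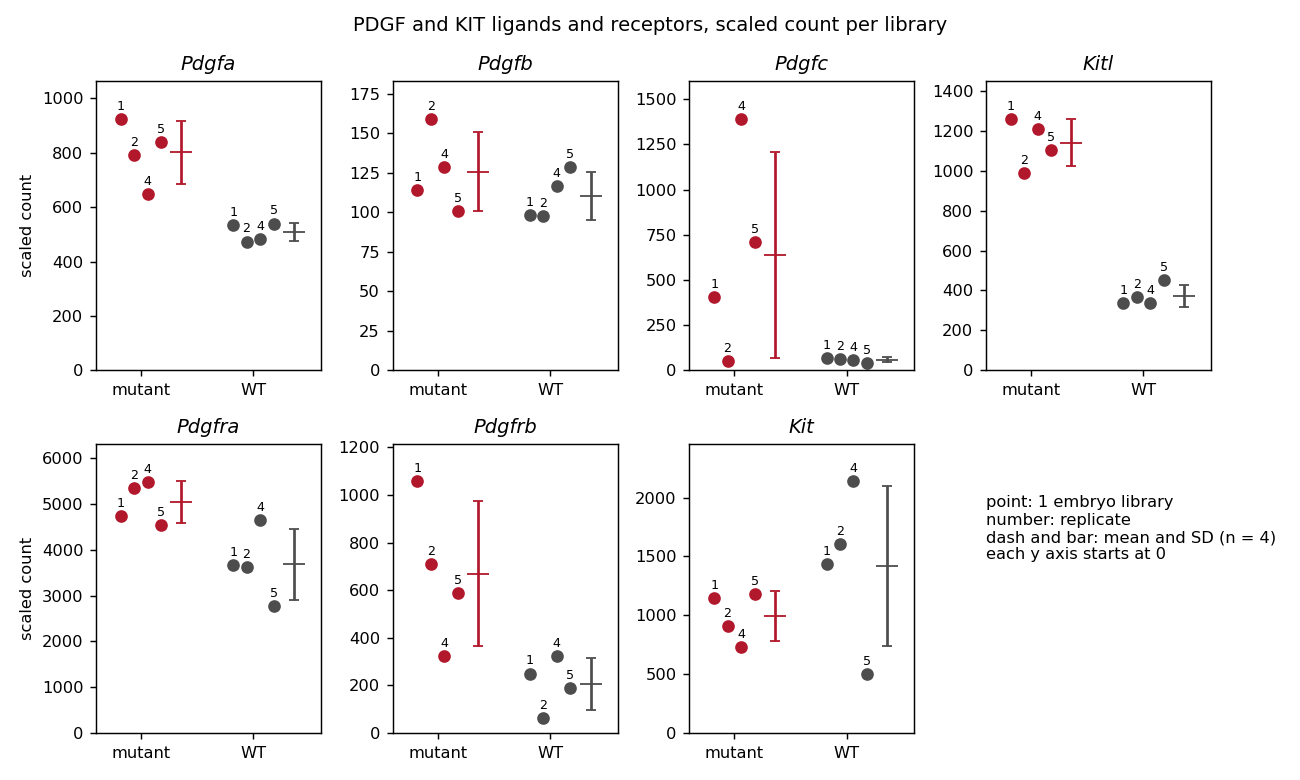
Scaled count (vertical axis, from 0) of each of the 7 genes in 4 mutant and 4 WT libraries. Points are libraries, and the tick with its bar is the mean ± SD. Kitl, Pdgfa and Pdgfrb show no overlap between genotypes, Pdgfc spreads from 52.5 to 1392 among the mutants, and Kit has 1 low WT library at 499.6.

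Turning to the receptors, Pdgfra (chr5:75152292-75198215, + strand) was the most abundant of the 7 genes and did not pass the test. It had 4746.5, 5359.5, 5486 and 4544 scaled counts in mutant replicates 1, 2, 4 and 5, against 3665, 3618, 4661 and 2781 in WT replicates. WT replicate 4 stood above mutant replicate 5, and in the other 15 of 16 pairs the mutant embryo was higher. Means were 5034 ± 459 and 3681 ± 769 in mutant and WT embryos (SD, n = 4 each), a log2 difference of 0.47 ± 0.14 (SE; 95% interval 0.15 to 0.79) at a limma adjusted p of 0.0538. Leaving out WT replicate 4 gave 0.59 and a limma adjusted p of 0.019, quantile normalization gave 0.49 (0.04998), and DESeq2 gave 0.45 (0.0176), each past the threshold. In the 6 Y-expressing libraries it was 0.28 (adjusted p = 0.252).

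Pdgfrb (chr18:61045150-61085061, + strand), the receptor best known from mural cells, was higher in mutant embryos by a wide and uneven margin. It had 1057, 708, 325 and 589.7 scaled counts in mutant replicates 1, 2, 4 and 5, against 249.6, 64.4, 322 and 191 in WT replicates. The groups did not overlap, but mutant replicate 4 and WT replicate 4 were almost level. Pdgfrb averaged 669.9 ± 304 scaled counts in mutant embryos and 207 ± 109 in WT embryos (SD, n = 4 each), a log2 fold change of 1.79 ± 0.51 (SE; 95% interval 0.64 to 2.93) with a limma adjusted p of 0.0432. The call was lost in 11 of 21 alternatives. Leaving out mutant replicate 1, 2 or 5 or WT replicate 1, 2 or 5 gave adjusted p of 0.0566 to 0.0915 and log2 fold changes of 1.31 to 1.95. In the 6 Y-expressing libraries the log2 fold change was 1.12 (adjusted p = 0.181), and with the decidua covariate it was 3.18 (adjusted p = 0.1).

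Mural and smooth muscle markers were examined beside Pdgfrb, with 4 of 9 tested genes higher, 0 lower and a median log2 fold change of 2.15, against 8.03% higher and a median of -0.0018 over all tested genes. Their sum ran from 2337 to 23053 scaled counts in mutant embryos and from 1345 to 1972 in WT embryos. Acta2, the smooth muscle actin, and Des, the intermediate filament desmin, were among the genes called higher, with log2 fold changes of 5.53 (limma adjusted p = 0.000416) and 4.39 (limma adjusted p = 0.0112). That of Des was 5.36 without mutant replicate 2 and 3.75 without mutant replicate 4, and its call was lost in the 6 Y-expressing libraries (adjusted p = 0.0811) and without mutant replicates 4 and 5 (0.0767). Abcc9 was at 0 in all WT libraries. The sum was highest in mutant replicate 4, which had the lowest Pdgfrb of the mutants, and Des alone was 20271 of the 23053 there. Des and Acta2 are also in the decidua list, so the lists are not independent and both genes entered the decidua covariate. Markers called higher numbered 2 in the 6 Y-expressing libraries and 0 with the decidua covariate. Without mutant replicates 4 and 5 it was 1 of the 7 still tested, and Acta2 was no longer tested. The extraembryonic and lateral mesoderm list had 12 of 12 genes higher, or 7 with the decidua covariate, and its sum was highest in mutant replicate 1, where Pdgfrb was also highest. Its member Tdo2 ran in the decidua order, with 3322, 97.6, 18751 and 7182 scaled counts in mutant replicates 1, 2, 4 and 5, against 142, 106, 6.06 and 4.74 in WT replicates. Its sums were 56526 to 93089 in mutant embryos and 14178 to 16740 in WT embryos. Whether these cells carry the Pdgfrb transcripts was not tested.

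Kit (chr5:75574916-75656722, + strand), the receptor of KIT ligand, did not pass the test and had a wide spread among WT embryos. It had 1146, 908, 732 and 1181 scaled counts in mutant replicates 1, 2, 4 and 5, against 1434, 1602, 2137 and 499.6 in WT replicates. WT replicates 1, 2 and 4 were above every mutant embryo, and WT replicate 5 was below every mutant embryo. Means were 992 ± 212 in mutant embryos and 1418 ± 682 in WT embryos (SD, n = 4 each), and the log2 difference was -0.36 ± 0.40 (SE), with a 95% interval of -1.25 to 0.53 and a limma adjusted p of 0.599. Without WT replicate 5 it was -0.80, called lower at a limma adjusted p of 0.0424. WT replicate 5 also had the lowest value among WT embryos for 14 of 14 parietal and primitive endoderm markers.

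The sum of those endoderm markers was 86960, 112836, 90405 and 94370 scaled counts in mutant replicates 1, 2, 4 and 5, against 140109, 215064, 186464 and 71968 in WT replicates. Lama1, a laminin chain of the basement membrane that parietal endoderm lays down, had 2466, 3984, 2348 and 3845 scaled counts in mutant replicates 1, 2, 4 and 5, against 15476, 26269, 23090 and 2954 in WT replicates. Lama1 was the 1 gene of 14 called lower (log2 fold change -2.07, limma adjusted p = 0.0489), with a list median of -0.44. Over all tested genes 7.55% were lower and the median was -0.0018. That call was lost when any library other than WT replicate 5 was left out, whereas 6 of the 14 were lower without that replicate. The same WT library was thus low both for Kit and for the endoderm list, as the plot of Kit beside the marker sum shows. The part of endoderm content in the Kit difference was not tested.

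**Figure D2:**
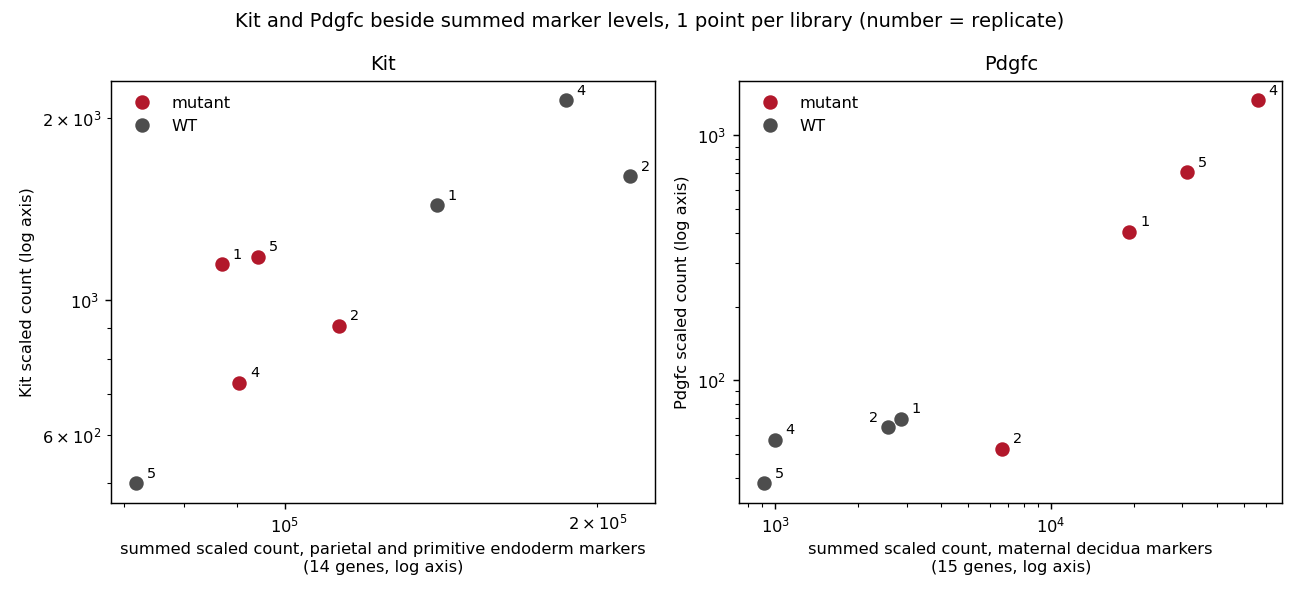
Left, Kit scaled count against the summed scaled count of 14 parietal and primitive endoderm markers. Right, Pdgfc scaled count against the summed scaled count of 15 maternal decidua markers. Axes are logarithmic, each point is a library and the number is its replicate. WT replicate 5 is at the lower left for Kit (499.6), and mutant replicate 4 at the upper right for Pdgfc (1392).

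The genes that looked most like each of the called members across the 8 libraries were found from the root-mean-square difference of log2 values, each gene centred on its own mean, over 11796 candidates. Nearest to Kitl were Mex3b (0.131), Hacd4 (0.147) and Gadd45g (0.15). Nearest to Pdgfa were Cmtm6 (0.0885), Arhgap42 (0.112) and Tfcp2 (0.112). Nearest to Pdgfrb were Frem2 (0.227), Rnf43 (0.286) and Cap2 (0.321). Frem2, an extracellular matrix protein gene, had 1224, 724, 517 and 701 scaled counts in mutant replicates 1, 2, 4 and 5, against 294, 101, 432 and 298 in WT replicates, and so shared with Pdgfrb the high mutant replicate 1 and the low WT replicate 2. For Kit the list, chosen after its values were seen, held the basement membrane collagens Col4a2 (0.281) and Col4a1 (0.321), with Smarcd1 (0.305) between them. For Pdgfc it held Abat (0.293), Gsdmd (0.298) and Prkg2 (0.373), also chosen after the values were seen. Among the 7 genes themselves, Pdgfra and Pdgfb were the closest pair at 0.313 and Pdgfc and Kit the farthest at 2.05.

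To compare levels between genes, scaled counts were divided by the length in kilobases of all annotated exons of a gene, merged. The transcripts present can be shorter than that, so the order of genes depends on this length. Pdgfra led in both genotypes, at 502 ± 45.8 scaled counts per kb in mutant embryos and 367 ± 76.7 in WT embryos (SD, n = 4 each). Pdgfa came second, at 257 ± 37.0 per kb in mutant embryos and 163 ± 10.96 in WT embryos. Kitl came next in mutant embryos at 193 ± 20.2 per kb, and after Kit in WT embryos at 63.1 ± 9.07. The order of the others differed between genotypes. In mutant embryos Pdgfc (126 ± 112), Pdgfrb (122 ± 55.4) and Kit (111 ± 23.7) followed within each other's spread, and Pdgfb was last at 30.2 ± 6.05. In WT embryos Kit (159 ± 76.5) stood level with Pdgfa within its spread, Pdgfrb followed Kitl at 37.7 ± 19.9, and Pdgfb (26.5 ± 3.67) and Pdgfc (11.3 ± 2.73) were lowest.

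**Figure D3:**
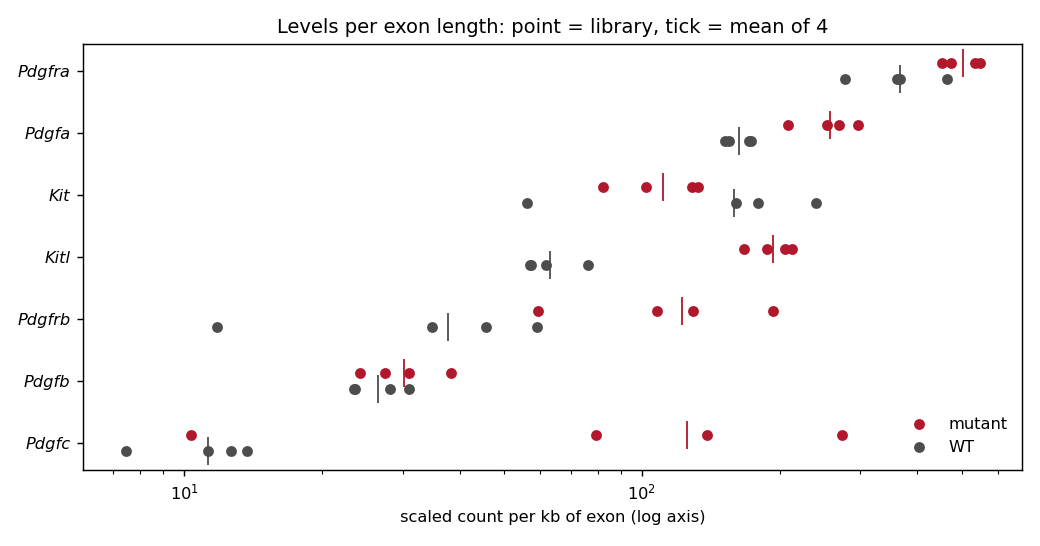
Scaled count per kilobase of exon (logarithmic axis) for the 7 genes, with each point a library and each tick the mean of 4. Pdgfra is highest in both genotypes, and Kitl is at 193 per kb in mutant embryos and 63.1 per kb in WT embryos.

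The balance of ligand to receptor per kilobase differed for KIT. Kitl was 1.65, 1.64, 2.5 and 1.41 times Kit in mutant replicates 1, 2, 4 and 5, against 0.354, 0.344, 0.239 and 1.36 in WT replicates. Per kilobase, the ligand exceeded its receptor in all 4 mutant embryos and in 1 WT embryo, replicate 5, whose low Kit set the ratio. That count depended on the merged exon lengths, 8911 bases for Kit and 5911 for Kitl. In scaled counts not divided by length, Kitl exceeded Kit in mutant replicates 1, 2 and 4 only. It was below Kit in mutant replicate 5 (1106 against 1181) and in every WT embryo. Pdgfrb relative to Pdgfra was 0.407, 0.242, 0.108 and 0.237 in mutant replicates 1, 2, 4 and 5, against 0.125, 0.0326, 0.127 and 0.125 in WT replicates, and the ranges overlapped through mutant replicate 4. Pdgfc made up 19.7%, 3.41%, 53.3% and 32.1% of the summed per-kilobase level of Pdgfa, Pdgfb and Pdgfc in mutant replicates 1, 2, 4 and 5, against 6.54%, 6.73%, 5.77% and 3.52% in WT replicates. Pdgfa was the main PDGF ligand in every library except mutant replicate 4, where Pdgfc was. These ratios are descriptions and were not tested.

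Within the wider family of class III and V receptors, 2 of 7 tested genes were higher and 0 lower, with a median log2 fold change of 0.47, where 8.03% of all tested genes were higher. No receptor was called without mutant replicates 4 and 5 or with the decidua covariate. Kdr, the main VEGF receptor of endothelial and early mesodermal progenitors, was the other one beside Pdgfrb. It had 4889, 5219, 2871 and 4319 scaled counts in mutant replicates 1, 2, 4 and 5, against 699.6, 41.7, 644 and 388 in WT replicates, with no overlap. Its log2 fold change was 3.84 ± 0.78 (SE; limma adjusted p = 0.0109), 2.91 without WT replicate 2, and it was no longer called once mutant replicates 4 and 5 were removed (adjusted p = 0.0571) and with the decidua covariate (0.138). Flt1 (0.37), Flt4 (0.39) and Csf1r (1.11) did not pass on that log2 scale, with limma adjusted p of 0.283, 0.362 and 0.409.

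Ligands of these receptors numbered 4 higher and 0 lower of 10 tested, with a median log2 fold change of 0.84. Over all tested genes 8.03% were higher and 7.55% lower. Beside Kitl and Pdgfa these were Pgf, placental growth factor, and Vegfc, the lymphatic growth factor. Pgf averaged 74.0 ± 34.7 scaled counts in mutant embryos and 20.5 ± 10.5 in WT embryos (SD, n = 4 each; limma adjusted p = 0.0346). Vegfc averaged 55.6 ± 19.7 in mutant embryos and 17.1 ± 10.2 in WT embryos (SD, n = 4 each; limma adjusted p = 0.0456). Both calls were near the threshold. Leaving out single libraries lost them for 6 of the 8 for Pgf and 7 of the 8 for Vegfc, with limma adjusted p up to 0.0884 and 0.113. In those fits that left out 1 library, log2 fold changes ran from 1.51 to 2.15 for Pgf and from 1.33 to 2.13 for Vegfc. Pdgfd, the remaining PDGF ligand, had a log2 difference of -0.16 (limma adjusted p = 0.83), and Vegfa had 0.31 (limma adjusted p = 0.113).

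**Figure D4:**
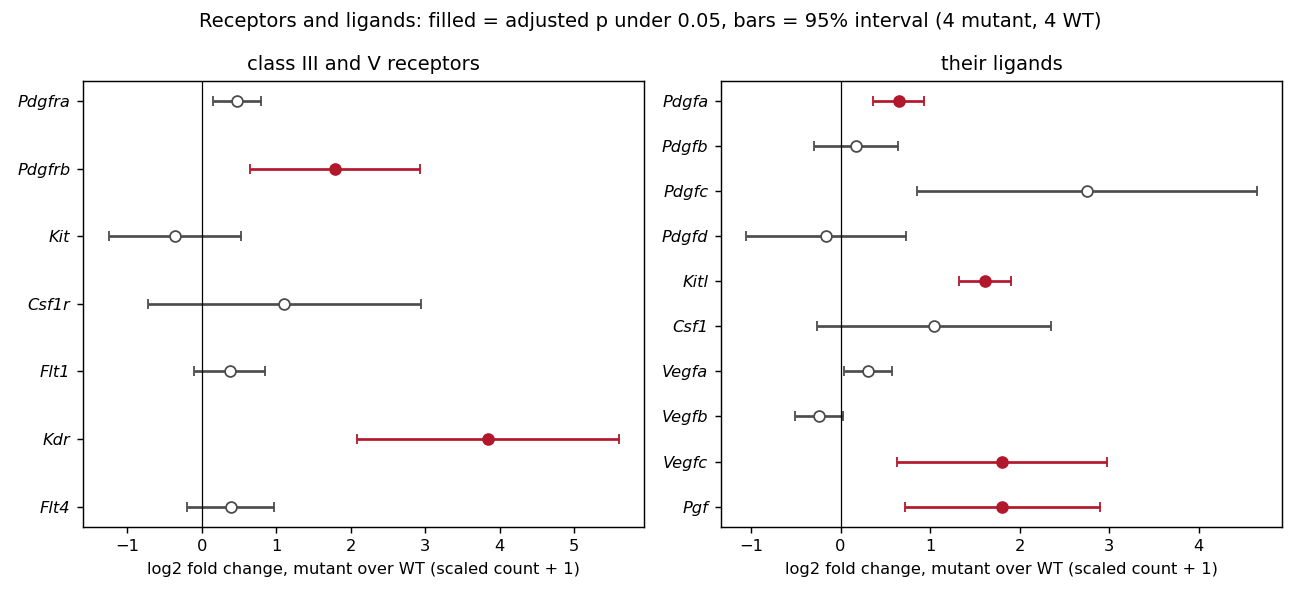
Log2 fold change, mutant over WT, on the scaled count + 1 scale, for class III and V receptors (left) and their ligands (right). Bars are 95% intervals from 4 mutant and 4 WT libraries, and filled points passed limma's adjusted threshold. Kitl has a narrow interval of 1.32 to 1.91, whereas that of Pdgfc runs from 0.85 to 4.65.

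Pdgfra, Kit and Kdr lie in a row on chromosome 5, with gaps of 377 kb and 276 kb between them (GRCm38). Their values differed: Kdr was called higher, Pdgfra had a log2 difference of 0.47 and Kit one of -0.36. The 10 tested genes of the stretch include Pdgfra and Kit, with 3 higher, 1 lower and a median log2 fold change of 0.11. Over all tested genes 8.03% were higher and 7.55% lower. Without mutant replicates 4 and 5, 0 of the 10 were called. Clock, a circadian transcription factor (0.61, limma adjusted p = 0.0212), and Srd5a3, a steroid reductase (0.44, limma adjusted p = 0.0379), were higher, and Lnx1, a ubiquitin ligase (-0.56, limma adjusted p = 0.0351), was lower. Each of these 3 calls was lost when 5 or 6 of the 8 libraries were left out in turn, and all 3 with the decidua covariate. Fip1l1, whose fusion with PDGFRA occurs in human leukaemia, had a log2 difference of 0.07 (limma adjusted p = 0.548).

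**Figure D5:**
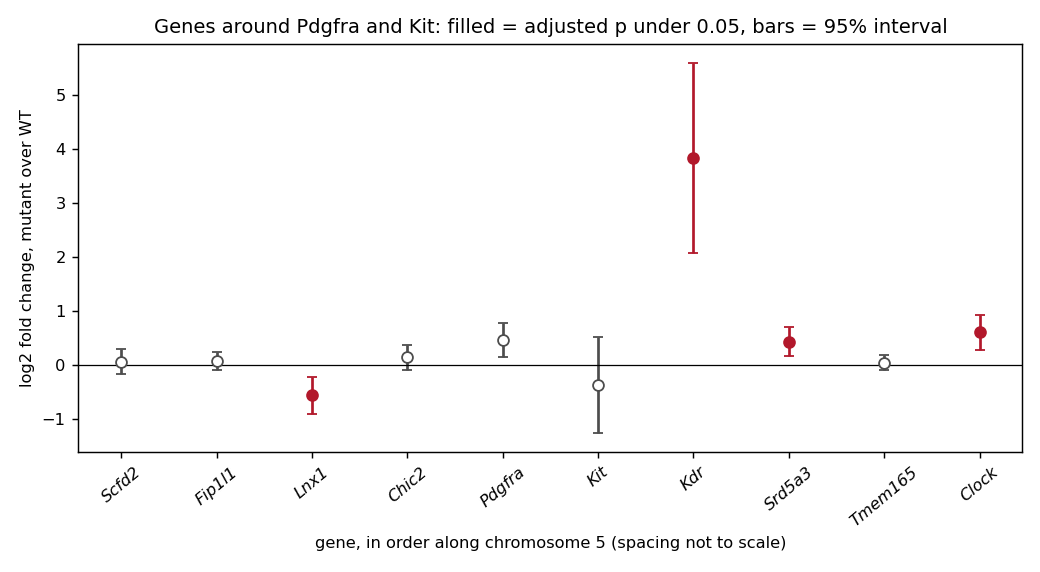
Log2 fold change, mutant over WT, of genes around Pdgfra and Kit in their order on the chromosome, with spacing not to scale. Bars are 95% intervals from 4 mutant and 4 WT libraries, and filled points passed limma's adjusted threshold. Kdr stands out at 3.84, while Pdgfra is at 0.47 and Kit at -0.36.

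Genes that process PDGF ligands or serve as coreceptors had 3 of 11 higher and 0 lower, with a median log2 fold change of 0.51. Over all tested genes 8.03% were higher and 7.55% lower. Nrp1, a neuropilin that binds VEGF and has been reported to bind PDGF, averaged 3406 ± 776 scaled counts in mutant embryos and 374 ± 87.9 in WT embryos (SD, n = 4 each; 9.09-fold, limma adjusted p = 2.91e-05). Nrp2, its relative, averaged 2819.8 ± 1087 in mutant embryos and 542 ± 90.4 in WT embryos (SD, n = 4 each; 4.95-fold, limma adjusted p = 0.000572). Pcsk5, a proprotein convertase, averaged 1036 ± 633 in mutant embryos and 107 ± 48.0 in WT embryos (SD, n = 4 each; 8.53-fold, limma adjusted p = 0.00629). Nrp1 and Nrp2 were called in every alternative run, and Pcsk5 was not called with the decidua covariate (adjusted p = 0.6), without mutant replicates 4 and 5 (0.0501) or in the 6 Y-expressing libraries (0.0576). Plat, tissue plasminogen activator, had 181 ± 60.3 scaled counts in mutant embryos and 584 ± 361 in WT embryos (SD, n = 4 each), a log2 difference of -1.45 (limma adjusted p = 0.102). Without WT replicate 5 the Plat difference passed (limma adjusted p = 0.00935). It also passed in DESeq2 and in the 6 Y-expressing libraries (limma adjusted p = 0.0354), which lack WT replicate 5 too.

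Proteases linked to the shedding of KIT ligand had 1 of 6 higher and 0 lower, with a median log2 fold change of 0.10, a count near the 15.6% called over all tested genes. Adam19 averaged 2586 ± 164 scaled counts in mutant embryos and 1353 ± 255 in WT embryos (SD, n = 4 each; 1.93-fold, limma adjusted p = 0.00168). Its call was lost with the decidua covariate (adjusted p = 0.152). Whether the higher Adam19 changes the shedding of KIT ligand, and in which direction, was not tested. Adam17, whose product cuts KIT ligand, had a log2 difference of 0.09 (limma adjusted p = 0.552).

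Downstream of the receptors, adaptors and effectors had 4 of 30 higher and 1 lower, with a median log2 fold change of 0.07, a share near the 15.6% called over all tested genes. With each library centred on its median the count was 1 higher and 3 lower and the median -0.02, with Akt2, Stat5b and Ptpn11 no longer called. Stat5a, a transcription factor activated by KIT, had a log2 fold change of 0.94 (limma adjusted p = 0.0116), and Akt2, a kinase of the PI3K pathway, one of 0.25 (limma adjusted p = 0.0164). Stat5b had 0.62 (limma adjusted p = 0.034). Pik3cd, a catalytic PI3K subunit, fell by 0.64 (limma adjusted p = 0.0141). The fifth was Ptpn11, the phosphatase SHP2 (0.38, limma adjusted p = 0.0437), named to complete the count after its value was seen. The calls of Stat5b and Ptpn11 were lost without 6 and 7 of the 8 single libraries, and none of the 5 was called in the 6 Y-expressing libraries.

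Genes that down-regulate these receptors had 3 of 15 higher and 0 lower, with a median of 0.14, against 8.03% higher over all tested genes. They were Sh2b3, the adaptor LNK that restrains KIT signalling (0.71, limma adjusted p = 0.00332), Socs1, a suppressor of cytokine signalling (1.02, limma adjusted p = 0.0164), and Ptprj, a receptor phosphatase (1.14, limma adjusted p = 0.0164). With the decidua covariate 0 were called, and once mutant replicates 4 and 5 were removed Sh2b3 alone was. The immediate-early list, genes that PDGF induces in fibroblasts, had 3 of 13 higher and 0 lower, with a median of 0.33, where 8.03% of all tested genes were higher. Median centring gave 1 higher and 1 lower, with Klf6 and Klf10 no longer called, and the decidua covariate turned the list's median to -0.30. These were the transcription factor genes Fosl2 (2.03, limma adjusted p = 0.0115), Klf6 (0.35, limma adjusted p = 0.0186) and Klf10 (0.27, limma adjusted p = 0.0478). Klf10 lost its call without 7 of the 8 single libraries and Klf6 without 3, and none of the 3 was called with the decidua covariate. Fos and Egr1, the classic early genes, had log2 differences of 0.56 and -0.32 (limma adjusted p of 0.436 and 0.433).

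Other lists of cells that can carry these genes were counted too, beside 8.03% higher and 7.55% lower over all tested genes. The nascent and paraxial mesoderm list had 3 of 15 higher and 2 lower, with a median log2 fold change of 1.29. Without WT replicate 2 it had 5 higher and 1 lower and a median of 0.37, and in the 6 Y-expressing libraries the median was 0.29. Blood and endothelial markers had 8 of 13 higher and 0 lower (median 1.99), or 2 higher with the decidua covariate. Fewer were tested without some mutant libraries. Of 11 still tested, 4 were higher without mutant replicate 4, without mutant replicate 5 or without both, and 5 without mutant replicate 1. Germ cell markers had 2 of 6 higher and 1 lower (median 0.24). Their calls fell to 0 without mutant replicate 4, mutant replicate 5 or WT replicate 4, and the median was -0.61 with the decidua covariate and -0.33 once mutant replicates 4 and 5 were removed. Decidua markers had 9 of 14 higher and 0 lower (median 3.46), or 3 higher in the 6 Y-expressing libraries. Without mutant replicates 4 and 5 it was 5 of the 13 still tested. T, the primitive streak gene brachyury, was present in every library, at 2917, 1675, 2003 and 1913 scaled counts in mutant replicates 1, 2, 4 and 5, against 1133, 130, 916 and 846 in WT replicates. WT replicate 2, the lowest in Pdgfrb, was the lowest of the WT embryos for T and for 12 of the 15 mesoderm markers.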

How the data were processed

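Per the labels' protocols, embryo RNA was amplified for 12 cycles (SMART-Seq v4, a kit that does not keep strand) and libraries were prepared with KAPA Hyper Prep. Per the submitters' processing notes, cutadapt 1.6, STAR 2.5.0a, HTSeq 0.5.3 and DESeq were used with the mm10 build. Settings and annotation are not stated in the sources used here. The authors deposited a signal table of 19950 genes, in which each library's gene counts are divided by its size factor. All deposited values were whole multiples of a step (100% whole within 0.01 of a read), and division by that step, 0.866 to 1.18 scaled counts per read, gave the reads back. The reads were amplified without molecular identifiers, and the depth limits mainly the lowest genes. Replicates differed by more than sampling noise (chi-square per degree of freedom of 18.8 to 82.6) and each counted once.

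The log2(scaled count + 1) values entered a two-sided limma 3.58.1 fit with a trended prior (R 4.3.3). It covered the 15600 genes that reached 10 scaled counts in 4 or more libraries. The same rule of 4 libraries held in fits that left libraries out, so some genes were not tested there. Such fold changes understate the change of low genes. The 21 alternatives took other pseudocounts (0.5, 5), filters (none, or a mean of 50) and scalings (median centring, quantiles), array weights, a replicate block or a decidua covariate, ran edgeR 4.0.16 or DESeq2 1.42.0 on recovered reads, or left out single libraries, mutant replicates 4 and 5, or the 2 WT libraries lacking Y-linked transcripts. On recovered reads edgeR called 2430 genes and DESeq2 3438. The code was tested on simulated data. Coordinates and exon lengths are from GENCODE on GRCm38 (19878 of 19950 IDs matched), which is not known to be the annotation used for counting. Promoter windows are from RefSeq, and 5 of 7 genes had one.

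The 7 genes and all lists were chosen with earlier results of these data known. Named beside the 7 genes were up to 4 called genes per list with the smallest p, or the 2 smallest where none passed, any receptor, ligand or neighbour, and the 3 nearest profiles of each called gene. Adam17, Fos, Egr1, Plat, T, Prl8a2, Prl3c1, Lum, Abcc9, Tdo2, Ptpn11 and the profiles nearest to Kit and Pdgfc fall outside that rule. They were picked once their values were known.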

Additional observations from a re-analysis of the deposited data

How the results depend on the processing

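Kitl was called higher in all 21 alternatives, Pdgfa in 19, Pdgfrb in 10, Pdgfra and Pdgfc in 4 each, Pdgfb in 0, and Kit was called lower in 1. Of the 7 genes, the 3 higher became 5 with DESeq2, 1 in the 6 Y-expressing libraries and 1 given the decidua covariate, and 2 to 4 when single libraries were left out; the 0 lower became 0 to 1, Kit without WT replicate 5. The log2 difference of Pdgfc reversed to -0.71 with the decidua covariate, and the cause was not tested. That covariate did not overlap between genotypes, so results with it cannot be assigned to decidua or genotype. Over all genes, 2431 calls (1253 higher, 1178 lower) became 985 (536 and 449) in the 6 Y-expressing libraries, 1320 (601 and 719) without mutant replicates 4 and 5, and 361 (192 and 169) with the decidua covariate; the first of these fits has 6 libraries, as has the second. Leaving out single libraries gave 1543 to 2249 calls, 800 to 1190 higher and 686 to 1136 lower. Same-numbered embryos did not deviate together (correlations of -0.04, -0.17, -0.19 and -0.05 for replicates 1, 2, 4 and 5, and 0 libraries correlated best with their own number). The numbers were therefore not taken as pairs. With the replicate block 1699 genes were called (910 higher, 789 lower) and 3 of the 7 genes were higher, with Pdgfra past the threshold (0.47, limma adjusted p = 0.0299) and Pdgfrb not (1.79, 0.0763). Over all genes and over the 7 genes, no choice of pseudocount, filter, scaling or weights moved a count of calls by more than 1.5 times, whereas shorter lists moved more: median centring did so for the effector and immediate-early lists, and the ligands called fell to 2 of those with a mean of at least 50. Depth limited none of the 7 genes strongly, since the lowest value was 32 reads.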
